A study of Homo sapiens with 12 samples.

Results

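The comparison described here sets CDK4/6 inhibition against JAK inhibition in senescent IMR90, an established fibroblast line from human lung. Its members were chosen by label alone: the 3 libraries of senescent cells given palbociclib and the 3 given ruxolitinib, which are 6 of the 12 libraries of the series. The cells of both groups were wild type, had received 20 Gy of ionizing radiation within 10 min, and were given 2 µM of either inhibitor on days 4, 6, 8 and 10 after it. They were harvested on day 11. Irradiated cells given DMSO and harvested on the same day (3 libraries) and untreated proliferating cells (3 libraries) served as reference levels. All groups came from 1 cell line, and the first dose came 4 days after irradiation. The labels do not say whether the 3 libraries of a group came from separate cultures, so p-values measure only the spread between these libraries, which may be technical. Poly(A) RNA was sequenced, and the values are normalized counts per gene.

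Palbociclib blocks the cyclin-dependent kinases CDK4 and CDK6. These kinases phosphorylate the retinoblastoma protein RB, and unphosphorylated RB holds the E2F factors that switch on genes of DNA replication. The DREAM complex represses genes of the cell cycle, among them those of mitosis. Ruxolitinib blocks the Janus kinases JAK1 and JAK2, which carry signals from receptors for interferons and for cytokines of the IL-6 family to the STAT factors. STAT factors together with IRF9 bind the interferon-stimulated response element, or ISRE, of antiviral genes. Senescent cells have left the cell cycle and release a mixture of cytokines, chemokines, growth factors and proteases known as the senescence-associated secretory phenotype, and part of it depends on NF-kB and interleukin-1.

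Recovered reads per library ran from 17575263 to 21762412 with palbociclib and from 18713012 to 21750962 with ruxolitinib, and every pair of libraries of a group differed by more than counting noise. Values by library are given in the order A119, A120 and A121 for palbociclib and A122, A123 and A124 for ruxolitinib. The first principal component of the 6 libraries held 68.0% of the variance and separated the inhibitors. The second held 14.6% and separated palbociclib libraries A119 and A120, whose deviations from the other libraries of their group followed transcript length across genes. Spearman's rho was 0.49 and -0.524 over 11167 genes, which are not independent replicates, against -0.121 to 0.148 in the other 4 libraries. The difference between the inhibitors itself had a rho of -0.144 with length. The label of fibroblasts held: 11 fibroblast markers summed to 651929 to 684210 normalized counts with palbociclib and 516145 to 520308 with ruxolitinib. These markers do not tell lung from other organs, so the organ in the label was not tested. The 8 immune markers summed to 703.8 to 820.8 and 1118 to 1182, with PTPRC, which marks leukocytes, at 5.33 or fewer. The 8 endothelial markers summed to 3604 to 4451 and 2324 to 2339, nearly all of it TEK, with CDH5 at 0 in all palbociclib libraries. The 11 epithelial markers, mostly KRT18, summed to 3655 to 4268 and 1873 to 2010. The part of other cell types in the results was not tested, and in such bulk libraries fewer cells of a type cannot be told from less RNA per cell.

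Palbociclib and ruxolitinib left senescent fibroblasts with different transcriptomes. Of 11242 genes tested, 2561 were higher with palbociclib than with ruxolitinib (22.8%) and 1983 were lower (17.6%), 40.4% in all, at an adjusted p under 0.05 in limma. These shares are the background for the counts of list members between the inhibitors in this fit, and the median difference over all tested genes was 0.02. Counts against DMSO or after another scaling have other backgrounds, given below. All differences are palbociclib minus ruxolitinib on the log2(normalized count + 1) scale, so low genes look less changed than they were. Each is given with its standard error and Benjamini-Hochberg adjusted p from this limma fit, and a range in brackets after a gene that was not called is the 95% interval of its difference. Large differences were mostly decreases: 448 genes were at least 2-fold lower with palbociclib (3.99%) and 82 at least 2-fold higher (0.729%). Against DMSO, palbociclib changed 48.3% of genes (26% higher, 22.3% lower) and ruxolitinib 4.52% (1.1% higher, 3.42% lower, or 124 and 384 genes). The ruxolitinib counts were 843 and 998 when only those groups entered the fit, and 38 to 61 and 220 to 251 when any 1 of its libraries or of the DMSO libraries was left out. Changes of at least 2-fold against DMSO covered 0.605% of genes upward and 5.39% downward for palbociclib, and 0.649% downward for ruxolitinib. These 2 comparisons share the DMSO libraries.

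The balance of higher and lower calls depended on how libraries were scaled. Summed normalized counts were 19369896 ± 68982 (SD, n = 3) with palbociclib and 16844894 ± 60521 with ruxolitinib. COL1A2, IGFBP3 and COX1 led a set of 20 genes that made up 26.1% of that gap. COX1 is the subunit of cytochrome c oxidase encoded in mitochondria. With libraries scaled to the same total, the median gene moved to -0.18, and 847 genes were higher and 4531 lower (15.7% of calls higher, against 56.4% before). With the same upper quartile 38.7% of calls were higher (1701 genes, and 2698 lower). After quantile normalization 1976 genes were higher and 1935 lower. For many lists the counts with the same total are therefore given as well. Their background is the 847 genes higher, the 4531 lower and the median of -0.18 over all genes with that scaling. Of the genes named below as not called, AURKA, ECT2, CDK4, RB1, RELA, JAK1, JAK2, INHBA, JUN and TNFRSF10D were called lower with the same total.

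**Figure D1:**
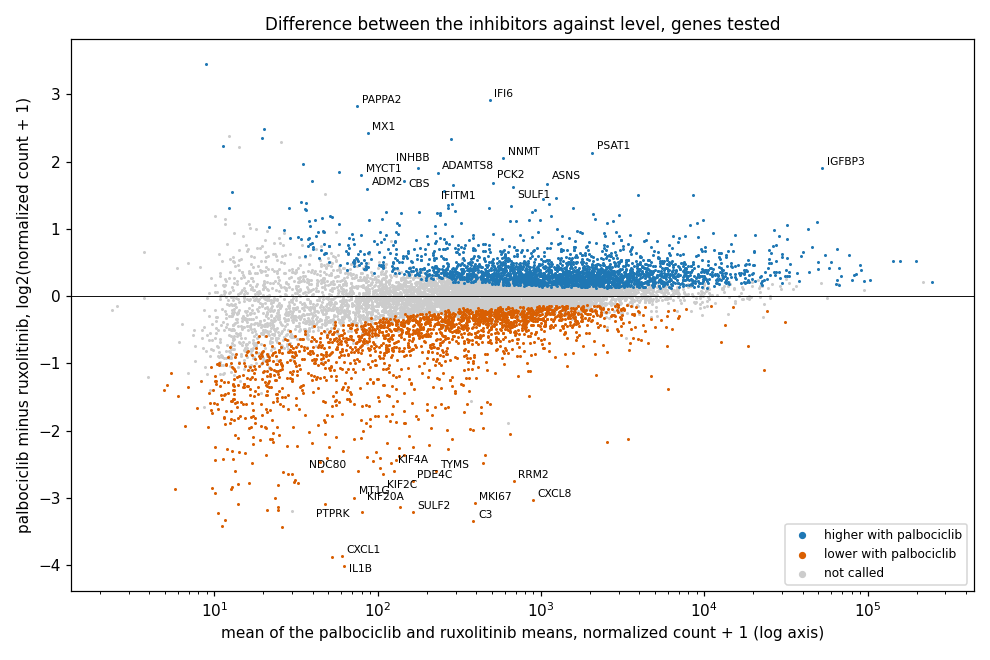
Difference between the inhibitors (vertical axis, log2(normalized count + 1), palbociclib minus ruxolitinib) against the mean of the group means (horizontal log axis, normalized count + 1) for the 11242 genes tested. Blue and orange points are the 2561 genes higher and the 1983 lower with palbociclib at an adjusted p under 0.05, grey points were not called, and the 30 genes with names are the 15 largest called differences in each direction, taken where the higher group's mean reached 100 and the groups did not overlap. Among the named genes IFI6 (2.92), PAPPA2 (2.82) and MX1 (2.42) stand highest, and IL1B (-4.01) and CXCL1 (-3.86) lowest.

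Cell cycle genes were far lower with palbociclib than with ruxolitinib. Of 38 tested genes of mitosis, 35 were lower with palbociclib, 1 was higher and 2 were not called, with a list median of -1.77. MKI67, the proliferation antigen Ki-67, stood at 88.5, 71.2 and 87.9 normalized counts with palbociclib and at 726, 678 and 697 with ruxolitinib (-3.08 ± 0.11, adjusted p = 1.4e-11). The ruxolitinib level was 8.48 times the palbociclib level. The groups did not overlap, and both were below DMSO (mean 1011) and below the 13062 of proliferating cells. KIF20A, a kinesin of cytokinesis, was at 31, 28.5 and 22.2 with palbociclib and 262, 213 and 265 with ruxolitinib (-3.14 ± 0.12, adjusted p = 2.4e-11). KIF2C and KIF4A, 2 other mitotic kinesins, differed by -2.64 and -2.59, and NDC80, a protein of the outer kinetochore, by -2.60. CDK1, the kinase that drives entry into mitosis, was at 33.2, 38.3 and 36.4 against 189.8, 216 and 208 (-2.47 ± 0.09, adjusted p = 2.2e-11). Its partner CCNB1 differed less (-0.68 ± 0.08, adjusted p = 6.3e-06). AURKA and the cytokinesis factor ECT2 were not called, and BUB3, a checkpoint protein, was higher with palbociclib (0.25 ± 0.05, adjusted p = 0.0012) but not with libraries scaled to the same total.

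Part of this list was also lower with ruxolitinib than with DMSO. Against DMSO, 22 of the 38 mitosis genes were lower with ruxolitinib (3.42% of all genes were) and none was higher, with a median of -0.38. With palbociclib 36 were lower (22.3% of all genes), with a median of -2.12. In the individual libraries the list median against the DMSO mean was -2.16, -2.07 and -2.25 with palbociclib and -0.44, -0.40 and -0.37 with ruxolitinib.

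DNA replication genes showed the same direction with smaller differences. Of 47 tested, 32 were lower with palbociclib, 14 were not called, and MCM6, a helicase subunit, was higher (0.20 ± 0.06, adjusted p = 0.018). That call was lost with libraries scaled to the same total, without A120 (adjusted p = 0.051) and without A123 (adjusted p = 0.088). In limma it was lost as well with the same upper quartile (adjusted p = 0.13) and with only the groups compared (adjusted p = 0.055). DESeq2 on recovered reads did not call it either (adjusted p = 0.064). RRM2, a subunit of ribonucleotide reductase, stood at 183, 173 and 169.7 against 1134, 1188 and 1238 (-2.75 ± 0.06, adjusted p = 3.4e-14). TYMS, which makes thymidylate, was at 58.7, 71.2 and 60.4 against 385, 389 and 392 (-2.60 ± 0.08, adjusted p = 5.7e-12). The DMSO mean of TYMS was 377, and ruxolitinib was not called against it (adjusted p = 0.86). RRM2 was lower with ruxolitinib than with DMSO (-0.42, adjusted p = 0.00018), where its mean was 1586. Against DMSO, 5 of the 47 genes were lower with ruxolitinib and 0 higher (3.42% and 1.1% of all genes were), with a median of -0.17. CLSPN, a replication checkpoint mediator, and PCNA, the sliding clamp, differed by -2.25 and -1.11. The helicase subunits MCM2 and MCM3 and the large reductase subunit RRM1 differed by -0.49, -0.26 and -0.31, and the list median was -0.38.

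The promoters of the 2 cell cycle lists differ in the motifs known for E2F and for the DREAM complex, so 1 promoter of each kind is shown from RefSeq (GRCh38.p14). Promoter windows run from 250 bases before to 50 bases after the annotated start, and both strands were searched. The CHR element (TTTGAA) was found in 25 of the 32 mitosis genes with an entry (78.1%), in 1 of 38 replication genes (2.63%) and in 15.4% of all 27305 promoters (9.87% of those of tested genes). The E2F site (TTTNNCGC) was found in 22 of 38 replication genes (57.9%), in 3 of 32 mitosis genes (9.38%) and in 6.9% of all promoters (10.6% of those of tested genes). The 120 bases before the start of MKI67 (chr10:128126424-128126543, minus strand) hold 2 CHR elements, and those of TYMS (chr18:657533-657652, plus strand) hold 1 E2F site, read on the opposite strand. Capitals mark the matches.
MKI67: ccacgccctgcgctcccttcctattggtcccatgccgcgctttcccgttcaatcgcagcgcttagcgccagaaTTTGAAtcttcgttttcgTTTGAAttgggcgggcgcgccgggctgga
TYMS: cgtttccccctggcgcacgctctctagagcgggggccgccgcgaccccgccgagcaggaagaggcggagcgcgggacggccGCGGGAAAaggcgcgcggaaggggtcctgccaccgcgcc
A match describes letters in this window and not a bound factor. Among mitosis genes with a CHR element 23 of 24 tested were lower, and so were 7 of 7 without one. Among replication genes with an E2F site 15 of 22 were lower and 1 higher, and without one 11 of 16 were lower.

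Within the RB pathway, 11 of 27 tested genes were lower with palbociclib, 3 were higher and 13 were not called. With libraries scaled to the same total 1 was higher and 17 were lower. CDK4, a target of palbociclib, was at 975, 1099 and 977 with palbociclib and 1050.1, 998 and 1049 with ruxolitinib, a difference of -0.02 with a 95% interval of -0.14 to 0.10. RB1, the retinoblastoma gene, was not called (-0.26 to 0.10). CDK6, the other target, was higher with palbociclib at 9828, 7281 and 8817 against 6200.2, 6199 and 5906 (0.49 ± 0.09, adjusted p = 0.00055). The transcription factors FOXM1 and MYBL2, which drive mitotic genes, were at 95.2, 95.2 and 129.7 against 427, 399.8 and 444 (-1.99 ± 0.10, adjusted p = 1.1e-09) and at 17.7, 33.9 and 30.2 against 137, 129 and 162 (-2.39 ± 0.17, adjusted p = 4e-08). Cyclin E2 (CCNE2) differed by -1.93, whereas its paralogue CCNE1 was not called (-0.19 to 0.31). E2F2 and E2F8 had 3 reads or fewer in every palbociclib library, so their ruxolitinib means were at least 6.84-fold and 6.18-fold higher than 3 reads per library.

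Cyclin-dependent kinase inhibitors, which hold senescent cells out of the cycle, were lower with palbociclib. Of 6 tested, 4 were lower and 2 were not called. CDKN1A, or p21, was at 14000.1, 15903 and 14433 with palbociclib and 31221, 30752 and 33259 with ruxolitinib (-1.10 ± 0.06, adjusted p = 1.6e-09), while the DMSO mean was 29150.3. CDKN2A, which encodes p16 and ARF, was at 121, 130.3 and 110.1 against 199, 173 and 197 (-0.65 ± 0.12, adjusted p = 0.0004). CDKN2B, or p15, differed by -0.40, a call lost without A119 and A120 together (-0.36, adjusted p = 0.073), and CDKN2C, or p18, by -1.55. Of 9 lamin and HMG genes 4 were lower and none was higher. LMNB1, the lamin whose loss marks senescence, was at 25.5, 37.2 and 32 against 118.8, 126 and 142 (-2.01 ± 0.14, adjusted p = 3.9e-08), and HMGB2, a chromatin protein of cycling cells, differed by -1.41.

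Target genes of p53, which the DNA damage response activates, were lower across the list. Of 35 tested, 30 were lower with palbociclib and none was higher, with a median of -0.54. GDF15, a stress cytokine, was at 778, 1015 and 985 against 3989, 3975 and 4473 (-2.17 ± 0.09, adjusted p = 1.2e-10). MDM2, the ligase that degrades p53, was at 2914, 2870.2 and 2790.1 against 6527, 6438 and 6606 (-1.19 ± 0.05, adjusted p = 5.4e-11). SULF2, an extracellular sulfatase, had the largest difference of the list at 25.5, 35 and 33.8 against 279, 289.9 and 317 (-3.20 ± 0.20, adjusted p = 1.1e-08). The apoptosis gene BBC3, or PUMA, differed by -1.10, and PMAIP1, or NOXA, was not called (-0.02 to 0.22). ZMAT3 was not called either (-0.08 to 0.21). In the libraries the list median against DMSO was -0.59, -0.66 and -0.54 with palbociclib and 0.10, 0.08 and 0.12 with ruxolitinib. TNFRSF10D, a decoy receptor for TRAIL, stood at 16296, 14524 and 13867 with palbociclib and 16073, 15609.9 and 15933 with ruxolitinib against a DMSO mean of 4580.4, and the inhibitors differed by -0.09 with an interval of -0.23 to 0.04. Without A119 that difference was -0.16 and called (adjusted p = 0.044).

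**Figure D2:**
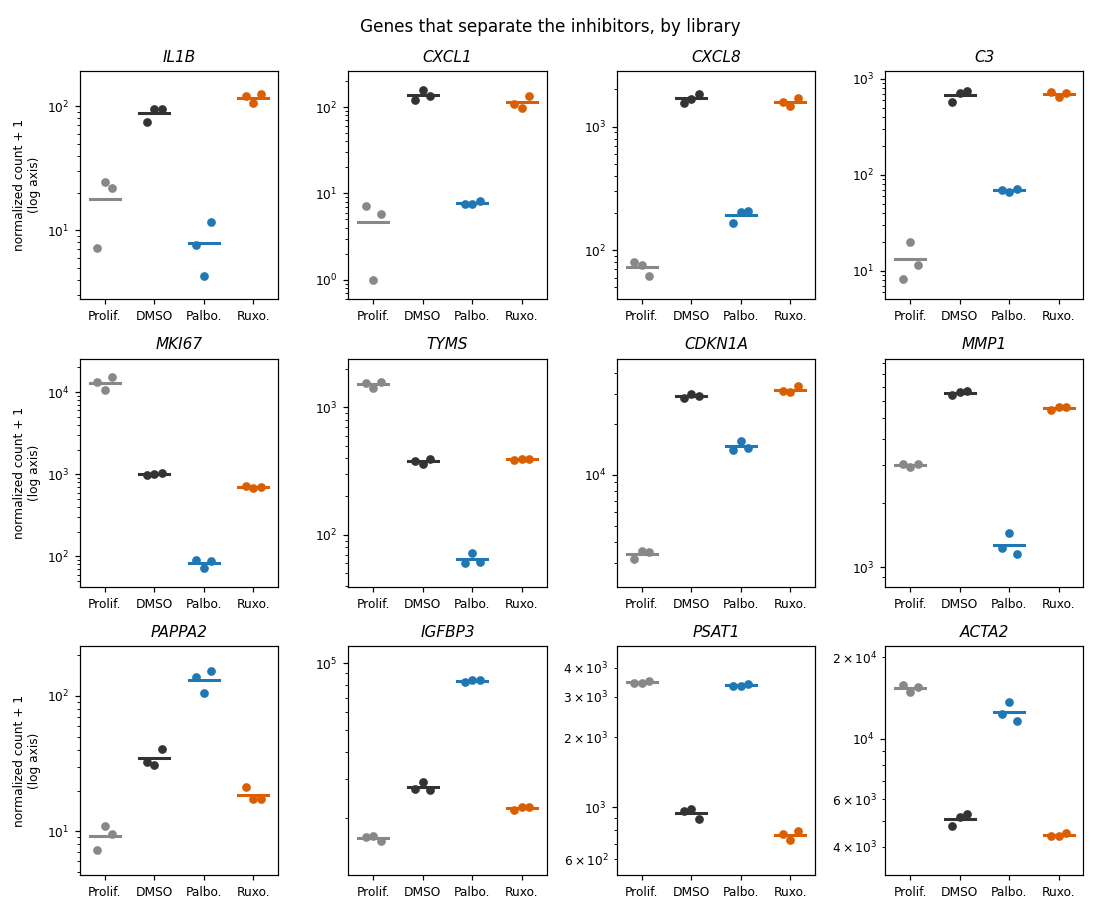
Normalized count + 1 (log axis) of 12 genes in each of the 12 libraries; points are libraries and bars are group means of 3 libraries (grey proliferating, black senescent with DMSO, blue palbociclib, orange ruxolitinib). In all 12 genes the palbociclib and ruxolitinib libraries do not overlap (51.8% of all tested genes did not): the 8 genes of the upper rows are lower with palbociclib and PAPPA2, IGFBP3, PSAT1 and ACTA2 are higher.

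Inflammatory genes of the secretory phenotype were lower with palbociclib, and IL1B, the ligands of CXCR2 and C3 were not called between ruxolitinib and DMSO. Other genes were: 4 of 16 tested interleukin-1 family genes were lower with ruxolitinib than with DMSO and 0 higher. In the NF-kB pathway 5 of 30 were lower and 1 higher (3.42% and 1.1% of all genes were). IL1B, the cytokine interleukin-1 beta, stood at 6.64, 3.28 and 10.7 with palbociclib and 118.8, 104 and 125 with ruxolitinib (-4.01 ± 0.40, adjusted p = 1.7e-06), and the DMSO mean was 86.8. Its ruxolitinib libraries all lay above its DMSO libraries (73.2, 93.5 and 93.7), as in 14.9% of all genes. The 95% interval of that difference, -0.44 to 1.28, was wide. It used a spread pooled over all 4 groups, including the low palbociclib libraries and proliferating libraries at 6.23, 23.3 and 20.9. It therefore does not measure the spread of the ruxolitinib and DMSO libraries alone, and the missing call does not show equal levels. IL1A was at 3.32, 4.38 and 2.66 against 48.6, 36.9 and 55 (-3.42 ± 0.44, adjusted p = 1.9e-05). Of 16 tested interleukin-1 family genes 8 were lower and 1, the adaptor MYD88, was higher (0.18 ± 0.06, adjusted p = 0.034). That call was lost with libraries scaled to the same total (-0.03), and also without A119, A121, A123 or A124 (adjusted p = 0.12, 0.054, 0.076 and 0.13). In limma it was lost as well with the same upper quartile, quantile normalization or only the groups compared (adjusted p = 0.21, 0.068 and 0.070). On recovered reads edgeR and DESeq2 did not call it either (adjusted p = 0.067 and 0.087). The receptors IL1R1, IL1RL1 and IL18R1 differed by -0.45, -2.20 and -1.04. The adaptor kinases IRAK2 and IRAK3 were lower (-0.87, adjusted p = 1e-07 and -0.87, adjusted p = 9.1e-05), and IRAK1 and IRAK4 were not called. IL6 was at 199, 227 and 262 against 512, 435 and 516 (-1.09 ± 0.13, adjusted p = 7.6e-06), and LIF, of the same cytokine family, differed by -0.67.

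All 5 tested ligands of the neutrophil receptor CXCR2 were lower with palbociclib, with a median of -3.08. CXCL8, or interleukin-8, was at 166, 205 and 208 against 1581, 1461 and 1713 (-3.04 ± 0.11, adjusted p = 2.2e-11), so the ruxolitinib level was 8.22 times as high. CXCL1 was at 6.64, 6.57 and 7.11 against 108, 95.4 and 134 (-3.86 ± 0.51, adjusted p = 2.7e-05). CXCL5 was at 5.53, 12 and 10.7 against 83.3, 83.7 and 83.9. CXCL2 and CXCL3 differed by -2.80 and -3.18, and since CXCL1, CXCL2 and CXCL3 are near-identical copies, the authors' counting could have shared reads among them. None of the 5 was called between ruxolitinib and DMSO, and all 5 were lower with palbociclib than with DMSO. For CXCL1 the 95% interval between ruxolitinib and DMSO, -1.37 to 0.81, used the same pooled spread, with proliferating libraries at 6.23, 0 and 4.76. CCL20, which attracts lymphocytes, had 3 reads in each palbociclib library, and its ruxolitinib mean was at least 8.89-fold higher than that. CXCL12, which guides stem and immune cells, differed by -0.73, and CCL2, a monocyte attractant, by -0.42 (adjusted p = 0.0087, and 0.057 without A124). Of 4 other chemokines tested 3 were lower.

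The letters GGNNTTTCC, which cover many kB sites, were found in 6 of 7 CXCR2 ligand promoters (85.7%), in 12 of 28 of the NF-kB pathway list (42.9%) and in 6.26% of all promoters. They were found in 3 of 22 interleukin-1 family promoters (13.6%) and in 1 of 9 of other chemokines (11.1%). The 150 bases before the start of CXCL1 (chr4:73869243-73869392, plus strand) and CXCL8 (chr4:73740419-73740568, plus strand) are shown, since both are among the 15 genes with the largest decreases. Capitals mark the match, which both share as GGAATTTCC, and CXCL1 has a second one.
CXCL1: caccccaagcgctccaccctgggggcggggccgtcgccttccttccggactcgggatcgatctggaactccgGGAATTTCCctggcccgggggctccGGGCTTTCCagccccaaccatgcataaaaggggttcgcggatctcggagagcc
CXCL8: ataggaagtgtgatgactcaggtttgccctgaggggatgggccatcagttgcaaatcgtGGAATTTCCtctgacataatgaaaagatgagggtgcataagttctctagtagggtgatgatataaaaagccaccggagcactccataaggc

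Of 30 tested genes of the NF-kB pathway 15 were lower with palbociclib, 3 were higher and 12 were not called (median -0.22), and with libraries scaled to the same total 22 were lower and none was higher. TNFAIP3, or A20, which shuts the pathway off, was at 121, 120.4 and 127 against 418, 344 and 411 (-1.66 ± 0.11, adjusted p = 1.1e-08). NFKBIA, the inhibitor IkB-alpha, was at 453, 621 and 512 against 1197, 1033 and 1177 (-1.11 ± 0.10, adjusted p = 4.7e-07), and BIRC3 differed by -1.10. Among the subunits of NF-kB, RELA was not called (-0.06 to 0.16), and neither was NFKB2 (-0.06, adjusted p = 0.53). NFKB1 and REL were lower (-0.30, adjusted p = 0.0069 and -0.77, adjusted p = 0.016). ICAM1, an adhesion molecule, was higher (0.27 ± 0.07, adjusted p = 0.0057), a call lost with libraries scaled to the same total (0.07) and with quantile normalization (0.15). With a kB match in the promoter 7 of 11 tested members were lower and 2 higher, and without one 6 of 16 were lower and 1 higher.

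C3, the central component of complement, was at 68.6, 65.7 and 70.2 with palbociclib and 739, 642 and 722 with ruxolitinib (-3.34 ± 0.22, adjusted p = 1.6e-08), and the DMSO mean was 679.8. The proteases that start the classical pathway went the other way: C1R was at 1106, 1206 and 1219 against 728, 721 and 700.2 (0.71 ± 0.06, adjusted p = 1.8e-07) and C1S at 3103, 3332 and 3427 against 2288, 2319 and 2306 (0.51 ± 0.05, adjusted p = 2.6e-06). Both were below DMSO with either inhibitor (means 1930.5 and 4373). Over the list 6 of 15 tested were higher and 3 lower, 3 and 5 with the same total, and the median of 0.04 turned negative with libraries scaled to the same total or upper quartile and without A120. Prostaglandin genes had 6 of 13 lower and 1 higher, 8 and 1 with the same total, with PTGS2, or cyclooxygenase-2, at 193, 154 and 136 against 288, 342 and 349 (-1.03 ± 0.14, adjusted p = 4.7e-05) and the synthase PTGES at 37.6, 41.6 and 46.2 against 142, 142 and 113 (-1.64 ± 0.20, adjusted p = 1.2e-05). PTGIS, the prostacyclin synthase, was the higher one (0.67 ± 0.18, adjusted p = 0.007).

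Interferon-stimulated genes were low with both inhibitors, and split in direction between them. Against DMSO, 49 of 49 tested were lower with palbociclib and 48 of 49 with ruxolitinib (22.3% and 3.42% of all genes were). The medians were -2.43 and -2.37. Between the inhibitors 27 were higher with palbociclib, 7 were lower and 15 were not called, with a median of 0.36, and it was the same with OAS1 set at the bound given below. With libraries scaled to the same total 17 were higher and 10 lower. The lowest of the list medians against DMSO was that of palbociclib library A119, at -2.78, against -2.37 and -2.22 in the other palbociclib libraries and -2.59, -2.35 and -2.36 with ruxolitinib.

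Several antiviral effectors were lower with ruxolitinib than with palbociclib. IFI6, a mitochondrial antiviral protein, was at 444, 993 and 1156 with palbociclib and 94.9, 117 and 103 with ruxolitinib (2.92 ± 0.24, adjusted p = 1.4e-07), against a DMSO mean of 9618 and 94.3 in proliferating cells. MX1, a GTPase that blocks virus replication, was at 90.7, 185 and 164 against 21.6, 29.7 and 25.3 (2.42 ± 0.21, adjusted p = 3.8e-07), against 2477 with DMSO. In both genes A119 was the lowest palbociclib library and still above every ruxolitinib library. The RNA sensor OAS2 was at 27.7, 35 and 32 against 4.63, 9 and 3.61 (2.35 ± 0.38, adjusted p = 0.0002). OAS1 had 2, 0 and 0 reads with ruxolitinib, and its palbociclib mean was at least 5.93-fold higher than 3 reads per library. BST2, or tetherin, and IFITM1, which blocks viral entry, differed by 2.23 and 1.65. IFITM1 has close paralogues whose reads could have been exchanged in the counting.

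A smaller set went the opposite way. HERC5, the ligase that attaches ISG15 to proteins, was at 8.85, 4.38 and 8.88 with palbociclib and 65.6, 41.4 and 59.6 with ruxolitinib (-2.78 ± 0.34, adjusted p = 1.2e-05), and OASL, which enhances RNA sensing, at 7.75, 8.76 and 5.33 against 51.7, 52.2 and 55.9 (-2.74 ± 0.28, adjusted p = 2.1e-06). IFIT2 and IFIT3, which bind viral RNA or complexes on it, were at 147, 152 and 220.3 against 377, 430.4 and 379 (-1.21 ± 0.17, adjusted p = 4.1e-05) and at 149, 195 and 216 against 340.3, 357 and 317 (-0.87 ± 0.12, adjusted p = 3.1e-05). ISG20, an exonuclease, differed by -1.47, and TRIM5, a restriction factor, by -0.38. CXCL10, a chemokine induced by interferon and NF-kB, was at 54.2, 56.9 and 47.1 against 114, 123 and 139 (-1.23 ± 0.18, adjusted p = 7e-05) with a DMSO mean of 459. ISG15, a ubiquitin-like modifier, and IFIT1, which binds viral RNA, were not called (-0.00 to 0.83 and -0.11 to 0.69). Without A119 both were called higher with palbociclib, at 0.73 (adjusted p = 0.00017) and 0.56 (adjusted p = 0.0043). RSAD2, or viperin, was at 0 in A119 and at 13.1 and 12.4 in the other palbociclib libraries, and was not called (-0.80 ± 0.72, adjusted p = 0.4, and 0.46 without A119).

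The ISRE core (GAAA, any 2 bases, GAAA), read on both strands, was found in 27 of 41 promoters of the list (65.9%) and in 3.65% of all promoters. Of the 26 tested members with a match 14 were higher with palbociclib, 4 were lower and 8 were not called, and of 14 without one 9 were higher and 5 were not called. IFI6 (180 bases before the start, chr1:27672193-27672372, minus strand) and HERC5 (150 bases, chr4:88456969-88457118, plus strand) are shown as genes with matches that differed in opposite directions. Capitals mark the matches, which lie on the opposite strand in HERC5 and overlap at the first run there.
IFI6: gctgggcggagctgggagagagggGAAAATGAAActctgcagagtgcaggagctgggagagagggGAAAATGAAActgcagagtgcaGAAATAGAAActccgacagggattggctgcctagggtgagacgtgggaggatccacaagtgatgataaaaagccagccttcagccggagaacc
HERC5: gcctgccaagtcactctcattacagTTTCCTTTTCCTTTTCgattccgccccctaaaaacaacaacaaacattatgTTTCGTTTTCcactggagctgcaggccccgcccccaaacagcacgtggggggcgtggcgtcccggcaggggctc

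**Figure D3:**
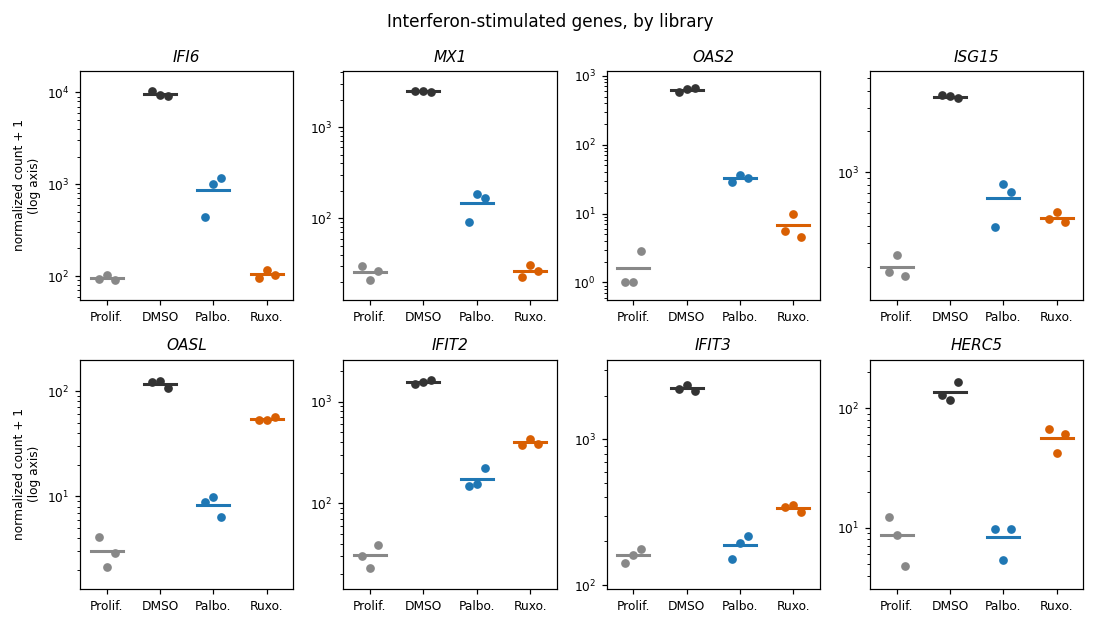
Normalized count + 1 (log axis) of 8 interferon-stimulated genes in each of the 12 libraries, with group means as bars (grey proliferating, black DMSO, blue palbociclib, orange ruxolitinib). Both inhibitors are below DMSO in all 8 genes. IFI6, MX1 and OAS2 are higher with palbociclib, OASL, IFIT2, IFIT3 and HERC5 are lower, and the ISG15 libraries overlap.

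Calls in the JAK-STAT pathway depended on the scaling, as did those over all genes. Of 32 kinases, STATs and feedback genes tested 4 were higher with palbociclib, 4 were lower and 24 were not called. That is 12.5% each way, against 22.8% and 17.6% of all genes. With libraries scaled to the same total 2 were higher and 19 lower (847 and 4531 of all genes). With the same upper quartile they numbered 2 and 12 (1701 and 2698 of all genes). JAK1, a target of ruxolitinib, was not called (-0.17 to 0.12), and neither was JAK2 (-0.53 to 0.06), which was called lower without A119 (-0.40, adjusted p = 0.013). JAK3, the kinase of lymphocyte cytokine receptors, was higher at 49.8, 55.8 and 46.2 against 25.5, 23.4 and 23.5 (1.04 ± 0.18, adjusted p = 0.00036). IRF9, which takes part in ISRE binding, was at 434, 568 and 544 against 302, 303 and 301 (0.76 ± 0.09, adjusted p = 1.1e-05), and STAT2 was not called (-0.01 to 0.33), though it was higher without A120 (0.23, adjusted p = 0.027). SOCS3, the feedback inhibitor of IL-6 family signals, was at 281, 365 and 325 against 317, 299 and 279, both below the DMSO mean of 538, and did not differ detectably (-0.09 to 0.31). SOCS2 was lower with palbociclib at 186, 211 and 227 against 481, 467 and 501 (-1.22 ± 0.08, adjusted p = 3e-08), with ruxolitinib near DMSO (474). Among ligands and receptors 7 of 26 were higher and 7 lower, 2 and 10 with the same total. OSMR, the oncostatin M receptor, was higher (0.56 ± 0.09, adjusted p = 0.00012) and LIFR, the LIF receptor, lower (-0.64 ± 0.12, adjusted p = 0.00049). Antigen presentation genes had 4 of 18 tested higher and 5 lower, 3 and 9 with the same total. Against DMSO, 14 of the 18 were lower and 1 higher with palbociclib (22.3% and 26% of all genes were). With ruxolitinib 15 were lower and 0 higher (3.42% and 1.1% of all genes were), and the medians were -0.67 and -0.61. Between the inhibitors GBP1 and GBP2, GTPases induced by interferon-gamma, differed by 0.63 and -0.46. GBP2 was not called after quantile normalization (-0.27, adjusted p = 0.052). WARS1, the tryptophanyl-tRNA synthetase, differed by 0.70. CXCL11, a chemokine, was at 15.5, 4.38 and 13.3 against 24.7, 35.1 and 28 (-1.47 ± 0.46, adjusted p = 0.02), a call lost without A120 (adjusted p = 0.091) and without A123 (adjusted p = 0.074).

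In the IGF axis carriers and proteases moved in both directions. PAPPA2, a protease that frees IGF by cutting its binding proteins, was at 136, 104 and 152 with palbociclib and 20.1, 16.2 and 16.2 with ruxolitinib (2.82 ± 0.23, adjusted p = 1.9e-07), with 33.5 in DMSO. IGFBP3, the main carrier of IGF, was at 82528, 83613 and 84154 against 21807, 22449 and 22407 (1.91 ± 0.05, adjusted p = 4.5e-13), a ratio of 3.75, and accounted for 2.42% of the gap in summed counts. The related protease PAPPA and STC1, an inhibitor of both proteases, were lower: PAPPA at 3412, 2275 and 3069.9 against 4616, 4297 and 4422 (-0.63 ± 0.13, adjusted p = 0.0015) and STC1 at 3521, 3157 and 3304 against 8724, 8216 and 8912 (-1.37 ± 0.07, adjusted p = 1.6e-09). IGFBP7, another carrier, was higher (0.67 ± 0.05, adjusted p = 9.1e-08), and IGF2 and IGFBP2 differed by -0.83 and -0.75. Over the list 7 of 17 were higher and 8 lower, and 4 and 8 with libraries scaled to the same total, which also turned the median from 0.13 to -0.07.

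The collagenase and stromelysin of the secretory phenotype were lower with palbociclib. MMP1, the interstitial collagenase, was at 1231, 1450.4 and 1146 against 5414, 5602 and 5601 (-2.12 ± 0.07, adjusted p = 5.6e-12), and MMP3, or stromelysin-1, at 199, 232 and 165 against 519, 538 and 513 (-1.41 ± 0.10, adjusted p = 5.8e-08). The tissue inhibitors TIMP1, TIMP2 and TIMP3 were higher by 0.36, 0.41 and 0.59, but none of the 3 was called after quantile normalization and TIMP1 was not with the same total. ADAM19 was at 13317, 11108 and 12470.5 against 5614, 5988 and 5736 (1.09 ± 0.07, adjusted p = 1.2e-08). Over the list 8 of 24 were higher and 7 lower, 5 and 13 with the same total and 3 and 6 after quantile normalization. PLAU, or urokinase, was at 12848, 15479.7 and 13463 against 24013, 22073 and 23266 (-0.73 ± 0.06, adjusted p = 2.8e-07). Of 9 plasminogen activator and serpin genes 4 were higher and 3 lower, 1 and 5 with the same total and 0 and 4 after quantile normalization.

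Growth factors had 7 of 25 higher and 7 lower, 6 and 12 with the same total. The epidermal growth factor receptor ligands AREG and EREG were at 38.7, 50.4 and 49.7 against 267, 217 and 239 (-2.36 ± 0.22, adjusted p = 8.8e-07) and at 151, 135 and 103 against 364, 452 and 402 (-1.65 ± 0.13, adjusted p = 9.1e-08), while HBEGF, of the same family, was not called (-0.16 to 0.19). VEGFA and ANGPT1, which act on vessels, were higher (0.54 ± 0.05, adjusted p = 8.4e-07 and 0.79 ± 0.10, adjusted p = 1.2e-05). HGF, hepatocyte growth factor, was lower (-0.28 ± 0.06, adjusted p = 0.0027). In the TGF-beta superfamily 11 of 43 tested were higher and 8 lower, 7 and 19 with libraries scaled to the same total, where the median moved from 0.01 to -0.19. INHBB, a subunit of activin B, was at 273, 286 and 271 against 77.2, 63 and 81.2 (1.90 ± 0.19, adjusted p = 1.2e-06), and FSTL3, which binds activins, at 3142, 3962 and 3273 against 1649, 1614 and 1577 (1.09 ± 0.08, adjusted p = 3.5e-08). BMP2 was at 129, 173 and 147 against 624, 556 and 587 (-1.98 ± 0.09, adjusted p = 5.5e-10) and BMP4 differed by -0.71. INHBA (-0.09 to 0.16) and TGFB1 (-0.02 to 0.24) were not called, and TGFB2 was higher (0.59 ± 0.11, adjusted p = 0.00057).

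Matrix and contractile genes were higher with palbociclib. Of 18 contractile genes tested 16 were higher, 1 was lower and 1 was not called, with a median of 0.58. With libraries scaled to the same total 11 were higher and 1 lower, and after quantile normalization 10 and 2. ACTA2, the smooth muscle actin of myofibroblasts, was at 12330.2, 13742 and 11634 with palbociclib and 4399, 4372 and 4486 with ruxolitinib (1.50 ± 0.06, adjusted p = 5.4e-11), and the palbociclib level lay nearer the 15437 of proliferating cells than the 5076 of DMSO cells. CNN1, or calponin, was at 3914, 4336 and 4281 against 1844, 1772 and 1820.0 (1.20 ± 0.05, adjusted p = 2.6e-10) and TAGLN, or transgelin, at 39770.5, 49375 and 42178 against 20796, 20909 and 20816 (1.06 ± 0.07, adjusted p = 9.8e-09). SRF, the factor that binds CArG boxes in these genes, was higher by a small amount (0.28 ± 0.05, adjusted p = 0.00037), a call lost with libraries scaled to the same total (0.08). MYOCD, a coactivator of SRF, was the member that was lower (-0.54 ± 0.12, adjusted p = 0.0027), a call lost without A119 and A120 together (-0.41, adjusted p = 0.080).

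The CArG box was found in 6 of 14 promoters of the contractile list (42.9%) and in 1.29% of all promoters. All 6 tested members with a box were higher (median 0.40), and so were all 8 without one (median 0.92). ACTA2 and CNN1 had no match in the window. The 140 bases before the start of ACTG2 (chr2:73892868-73893007, plus strand), the gamma actin of smooth muscle, are shown because they hold 2 boxes. ACTG2 was at 12346, 14968 and 13038 with palbociclib and 6054, 6111 and 6243 with ruxolitinib (1.13 ± 0.07, adjusted p = 3.6e-09). Capitals mark the boxes.
ACTG2: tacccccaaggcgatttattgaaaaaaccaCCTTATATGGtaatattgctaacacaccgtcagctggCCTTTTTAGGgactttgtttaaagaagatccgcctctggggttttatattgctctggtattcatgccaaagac

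Of 28 collagen chains tested 13 were higher and 6 lower with palbociclib (median 0.21). These counts were 9 and 7 with libraries scaled to the same total, with a list median of 0.005 against -0.18 over all genes. The fibrillar chains COL1A2 and COL3A1 were at 229957, 236606 and 234411 against 160974, 165190.0 and 162933 (0.52 ± 0.05, adjusted p = 2.7e-06) and at 20841, 19694 and 20763 against 14925, 14576 and 15066 (0.46 ± 0.04, adjusted p = 9.4e-07), and COL1A2 was not called after quantile normalization (0.09). The basement membrane chains COL4A1 and COL4A2 were higher (0.89 and 0.68), while COL4A6, of the same family, was at 237, 210.2 and 255 against 687, 702 and 699 (-1.57 ± 0.09, adjusted p = 1.9e-09). COL15A1 had the largest increase of the list at 1836, 1632 and 1962 against 667, 625 and 678 (1.46 ± 0.07, adjusted p = 4e-10), and COL7A1, of anchoring fibrils, was lower (-0.87 ± 0.06, adjusted p = 5.6e-08). Of 35 other matrix genes 20 were higher and 3 lower, 16 and 7 with the same total. LOX, which crosslinks collagen, was at 71724, 63164 and 66715 against 30770.4, 31535 and 31198 (1.11 ± 0.06, adjusted p = 3.5e-09), and THBS2, or thrombospondin-2, differed by 1.26. POSTN, or periostin, went the other way at 159, 111 and 135 against 757, 761 and 737 (-2.48 ± 0.11, adjusted p = 1.6e-10). FN1, or fibronectin, was at 274132, 186601 and 247216 in A119, A120 and A121 and 201473, 204916 and 199373 with ruxolitinib. The groups overlapped through A120 and the gene was not called (0.21 ± 0.13, adjusted p = 0.2), and without A120 it was (0.37, adjusted p = 0.0086).

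Genes of amino acid supply were higher with palbociclib. Of 29 tested targets of ATF4, the factor of the amino acid response, and transporters, 21 were higher and 2 lower, with a median of 0.66, and 20 and 6 with libraries scaled to the same total. ATF4 was at 5869.6, 7044 and 6166 against 3901, 4132 and 3997 (0.66 ± 0.07, adjusted p = 2.2e-06). ASNS, which makes asparagine, was at 1571, 1649.7 and 1741 against 508, 501 and 554 (1.67 ± 0.07, adjusted p = 8.5e-11), and PCK2, the mitochondrial phosphoenolpyruvate carboxykinase, at 727, 817 and 771 against 232, 242 and 244 (1.68 ± 0.07, adjusted p = 1.8e-10). ADM2, adrenomedullin 2, differed by 1.60. SLC7A5, which imports leucine, was at 5853, 5697 and 6007 against 2016, 2042 and 2109.7 (1.51 ± 0.05, adjusted p = 5.6e-12). The stress factors ATF3 and DDIT3 were the 2 lower genes, ATF3 at 194, 199 and 201 against 627, 688 and 680.4 (-1.74 ± 0.08, adjusted p = 1.6e-10) and DDIT3, or CHOP, by -0.54. Against DMSO, palbociclib libraries had 21 of these genes higher and 5 lower (26% and 22.3% of all genes were). Ruxolitinib libraries had none higher and 11 lower (1.1% and 3.42% of all genes were).

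In serine synthesis PSAT1 stood at 3337, 3316 and 3388 with palbociclib and 770.0, 721 and 795 with ruxolitinib (2.13 ± 0.05, adjusted p = 4.5e-13), with means of 3451 in proliferating cells and 948 in DMSO. PHGDH, the first enzyme of the route, was at 1023, 1285 and 1179.6 against 529, 509.6 and 549.5 (1.13 ± 0.08, adjusted p = 5.8e-08), and MTHFD2, of mitochondrial one-carbon metabolism, at 2941, 3031 and 2826 against 1299, 1353 and 1319 (1.15 ± 0.06, adjusted p = 5.9e-10). Of 17 tested 8 were higher and 2 lower, 7 and 5 with the same total, and TYMS, also a replication gene, was among the lower ones. The list median of 0.20 moved to -0.01 with the same total, where the median over all genes was -0.18. CBS, of transsulfuration, was at 133, 398 and 149 with palbociclib and 86.4, 47.7 and 52.3 with ruxolitinib (1.71 ± 0.37, adjusted p = 0.0016). A120 stood above the other palbociclib libraries, and CBS has a near-identical copy that could share its reads, so its value is uncertain. Of 19 aminoacyl-tRNA synthetases 16 were higher and none lower (median 0.34), 9 and 0 with the same total, led by GARS1 at 9896, 9966 and 9729 against 5254, 5392 and 5289 (0.89 ± 0.04, adjusted p = 4.6e-10).

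The letters TGATGNAA of the amino acid response element were found in 6 of 25 promoters of the ATF4 list (24%), in 6 of 16 of the synthetases (37.5%) and in 3.67% of all promoters. In the ATF4 list 5 of 6 members with a match were higher and 1 lower, and without one 12 of 19 were higher and 1 lower. Among synthetases 5 of 6 with a match were higher, and 8 of 10 without one. The 120 bases before the start of ASNS (chr7:97872409-97872528, minus strand) hold 1 match, in capitals.
ASNS: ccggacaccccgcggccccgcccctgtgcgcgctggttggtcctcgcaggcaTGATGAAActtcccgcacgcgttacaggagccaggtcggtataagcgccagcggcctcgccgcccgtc

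Sterol and fatty acid genes were mostly higher (21 of 33 up, 2 down, median 0.23). With libraries scaled to the same total 7 were up and 5 down, where 847 of all genes were up and 4531 down. The list median was then 0.03, against -0.18 over all genes. SCD, the stearoyl-CoA desaturase, was at 6349.9, 5586 and 6208 against 3664, 3897 and 3768 (0.68 ± 0.06, adjusted p = 3.6e-07). STARD4, a carrier of cholesterol, differed by 0.72.

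**Figure D4:**
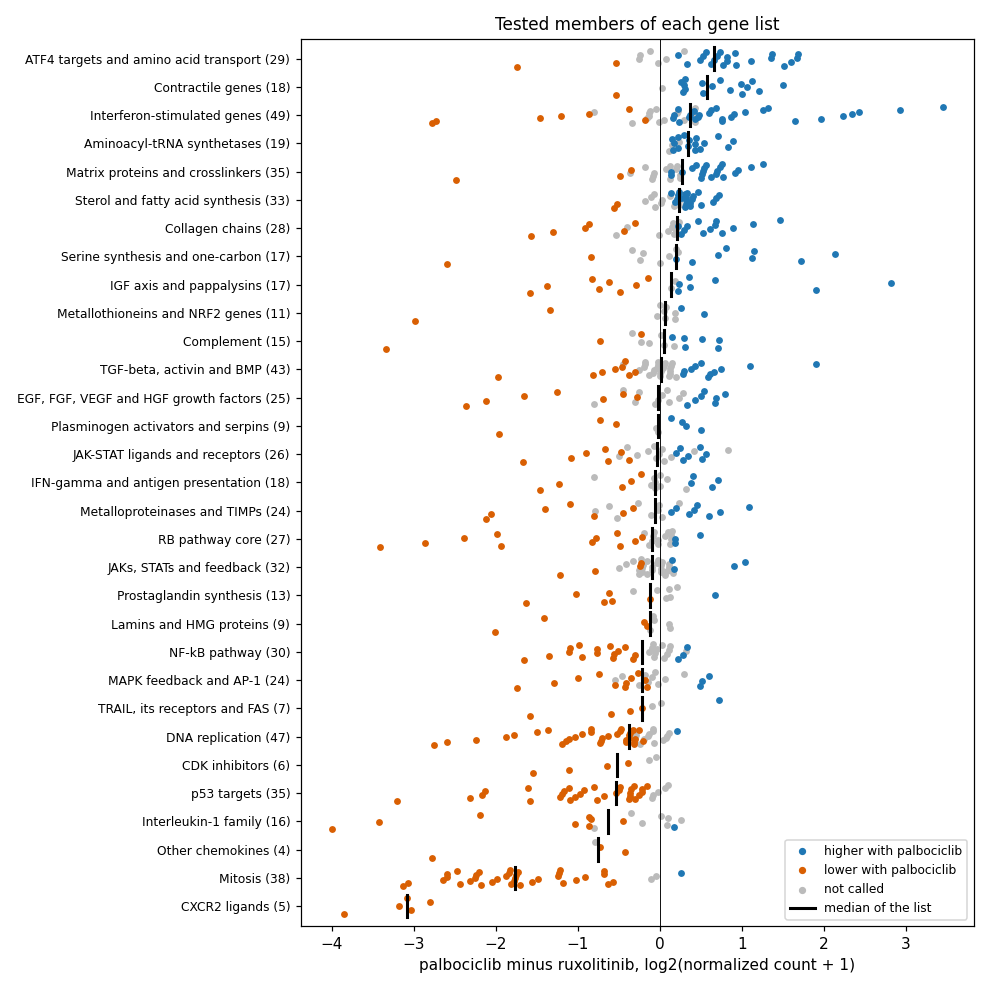
Difference between the inhibitors for the tested members of 31 gene lists (horizontal axis, log2(normalized count + 1), palbociclib minus ruxolitinib). Each point is a gene, blue higher, orange lower and grey not called at an adjusted p under 0.05, black bars are list medians, and numbers in brackets are members tested. The CXCR2 ligands have the lowest median (-3.08) and the ATF4 targets and amino acid transport genes the highest (0.66).

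Other genes with large differences have varied roles. NNMT, which methylates nicotinamide, was at 848, 1106 and 895 with palbociclib and 222, 219 and 240.0 with ruxolitinib (2.05 ± 0.11, adjusted p = 1.6e-09), and the DMSO mean lay between them at 454. The sulfatases SULF1 and SULF2, which trim heparan sulfate, went in opposite directions: SULF1 was at 1152, 845 and 1059 against 323, 336 and 326 (1.62 ± 0.10, adjusted p = 1.2e-08). ADAMTS8, a metalloprotease, was at 346, 363 and 382 against 96.4, 96.3 and 111 (1.84 ± 0.11, adjusted p = 3.4e-09), and MYCT1, a target of MYC, at 125, 119.3 and 121 against 38.6, 34.2 and 30.7 (1.80 ± 0.16, adjusted p = 3.6e-07). PDE4C, a phosphodiesterase that degrades cyclic AMP, was at 37.6, 51.4 and 37.3 against 289, 295 and 269.8 (-2.74 ± 0.24, adjusted p = 2.9e-07). MT1G, a metallothionein with close paralogues, was at 11.1, 19.7 and 15.1 against 120.4, 141 and 116 (-2.99 ± 0.34, adjusted p = 6.6e-06), while MT2A was not called (-0.09 to 0.46) except without A119 (0.37, adjusted p = 0.0086). Of 11 metallothionein and NRF2 genes 2 were higher and 2 lower, 1 and 5 with the same total. HMOX1, or heme oxygenase-1, was the other lower member (-1.34 ± 0.10, adjusted p = 4.4e-08), and TXNRD1, a thioredoxin reductase, was higher (0.54 ± 0.06, adjusted p = 2.9e-06). PTPRK, a receptor phosphatase, was at 8.85, 7.66 and 6.22 with palbociclib and at 235, 208 and 9.02 with ruxolitinib. Libraries A122 and A123 stood far above every other irradiated library, A124 did not (DMSO 12.9, 17.8 and 12.7), and so the call (-3.22 ± 0.82, adjusted p = 0.0057) rests on 2 of 3 libraries. The difference was -4.70 without A124, -2.43 without A122 and -2.51 without A123.

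The list medians by library set these differences beside the proliferating cells. For contractile and ATF4 genes the palbociclib libraries lay between DMSO and proliferating libraries. For matrix genes they stood at 0.37 to 0.45, against 0.37 to 0.44 in proliferating libraries. The ruxolitinib libraries stood at -0.22 to -0.13 for ATF4 genes, below every DMSO library. For interferon-stimulated genes both inhibitors lay at about the level of proliferating cells, whose medians were -2.27, -2.45 and -2.36 against DMSO.

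**Figure D5:**
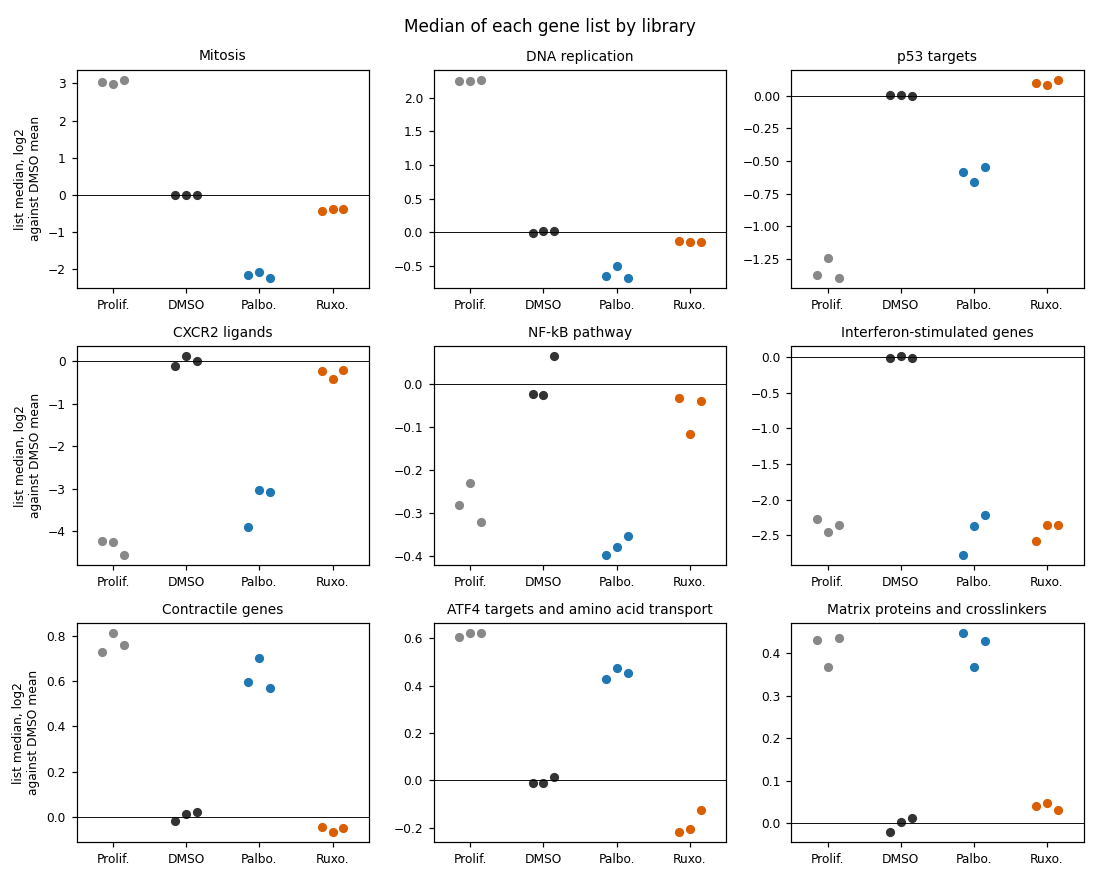
Median of the tested members of 9 gene lists in each of the 12 libraries, relative to the mean of the DMSO libraries gene by gene (vertical axis, log2; grey proliferating, black DMSO, blue palbociclib, orange ruxolitinib). Mitosis, replication, p53, CXCR2 ligand and NF-kB medians are lower with palbociclib than with ruxolitinib in every library, contractile, amino acid and matrix medians are higher, and the interferon medians overlap, from -2.78 to -2.22 with palbociclib and from -2.59 to -2.35 with ruxolitinib.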

How the data were processed

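Poly(A) RNA from TRIzol extracts was sequenced, and the authors deposited 1 table of 16383 genes by 12 libraries. The deposited unit is a normalized count, treated as a signal: reads per gene divided by a size factor per library. Per the submitters' processing notes, Trimmomatic 0.38.1, HISAT2 2.2.1, featureCounts 2.0.3 and DESeq2 2.11.40.8 were used with hg38. The annotation and strand setting are not given in the sources used here. All 160380 values above 0 were whole multiples of 1 read (100% at a tolerance of 0.01), so whole reads were recovered. Rows end at Entrez ID 140467, and 4796 of 20056 RefSeq protein-coding genes (23.9%) have higher IDs and were not analysed here.

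Values were analysed as log2(normalized count + 1) for the 11242 genes with a mean of at least 10 over the 12 libraries. The main test was limma 3.58.1 (R 4.3.3) with a mean-variance trend, 4 group means and Benjamini-Hochberg adjustment over all tested genes, with a threshold of 0.05. edgeR 4.0.16 (quasi-likelihood, 2320 genes higher and 2238 lower) and DESeq2 1.42.0 (2322 and 2116) on recovered reads were alternatives. The limma and edgeR fits were tested on simulated data, and the DESeq2 fit was not. Named genes were the 15 largest called differences in each direction where the higher group's mean reached 100 and the groups did not overlap, the markers IL1B, CXCL1, C3 and PAPPA2, and list members that carry the list's role or its largest called difference. Other named members were chosen after their values were seen. The comparison, its lists (860 entries in 35 lists, 843 found in the table) and the promoters shown were chosen with earlier results of these data known. Reads shared by near-identical genes could be split by the authors' counting. Lower bounds used a floor of 3 reads per library. Promoter windows came from RefSeq (GRCh38.p14). Some members of the lists are counted but not reported here by name.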

Additional observations from a re-analysis of the deposited data

How the results depend on the processing

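No paired analysis was possible because the column names carry a group and a library number but no replicate number. Precision is limited by 3 libraries a group. With libraries scaled to the same total, genes higher and lower numbered 847 and 4531 between palbociclib and ruxolitinib and 940 and 5170 between palbociclib and DMSO. With the same upper quartile 1701 were higher and 2698 lower between the inhibitors. The main fit gave 1749 higher and 1273 lower there at an adjusted p under 0.01. At least 2-fold differences numbered 82 higher and 448 lower between the inhibitors, 68 and 606 for palbociclib against DMSO, and 2 and 73 for ruxolitinib against DMSO. For ruxolitinib against DMSO, 191 genes were higher after quantile normalization, 199 with DESeq2, and 843 higher and 998 lower when only those groups entered the fit. At an adjusted p under 0.01 these were 34 and 212. Leaving out 1 library gave 38 to 61 higher and 220 to 251 lower there, and 2052 to 2688 higher and 1547 to 2087 lower between the inhibitors. After the data were seen, the trend on transcript length was removed (2455 higher, 2452 lower), and A119 and A120 were left out together (1824 and 1323), which leaves 1 palbociclib library assumed to vary like the others. The causes of these shifts were not tested. In 3 named genes the sign changed with a call in either fit: INHBA was at -0.17, MYD88 at -0.025 and RELA at -0.15 with the same total.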

Other observations

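Feedback genes of the MAPK pathway and members of the AP-1 family, which growth factor signals switch on, were lower more often than higher with palbociclib. Of 24 tested, 11 were lower and 3 higher, with a median of -0.22, and 17 and 3 with libraries scaled to the same total. DUSP4, a phosphatase that switches off nuclear MAP kinases, was at 74.1, 105 and 97.7 with palbociclib and 228, 214 and 232 with ruxolitinib (-1.29 ± 0.15, adjusted p = 6.9e-06). ETV1, an ETS factor, was at 263, 269 and 235 against 509, 499 and 523 (-0.99 ± 0.10, adjusted p = 1.2e-06). The 3 higher genes were MYC, a growth factor-induced transcription factor, at 893, 1038 and 934 against 613, 591 and 685 (0.60 ± 0.08, adjusted p = 1.9e-05), the phosphatase DUSP1 (0.48) and ETV5 (0.51). JUN and FOS were not called (-0.18 to 0.07 and -0.10 to 0.68), though JUN was called lower with the same total (-0.26, adjusted p = 0.0031) and after quantile normalization (-0.22, adjusted p = 0.016).

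Death receptor genes showed a mixed pattern. Of 7 genes of TRAIL, its receptors and FAS, 4 were lower with palbociclib and 1 was higher, 5 and 1 with the same total. TNFRSF10C, a decoy receptor, was at 98.5, 66.8 and 77.3 against 239, 234 and 254 (-1.59 ± 0.17, adjusted p = 4e-06), and the signalling receptors TNFRSF10A and TNFRSF10B differed by -0.59 and -0.23, the former not called without A119 and A120 together (-0.40, adjusted p = 0.087). FAS differed by -0.36. TNFRSF11B, or osteoprotegerin, a decoy for RANKL and TRAIL, was higher at 2538, 2274 and 2247 against 1416, 1408 and 1438 (0.73 ± 0.07, adjusted p = 7.5e-07). CSF2, the cytokine GM-CSF, was at 7.75, 12 and 7.11 against 30.1, 23.4 and 38.8 (-1.68 ± 0.28, adjusted p = 0.00024), and SERPINB2, an inhibitor of urokinase, at 184, 197 and 161 against 750.0, 639 and 734 (-1.97 ± 0.15, adjusted p = 5.8e-08).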
